A study of Homo sapiens with 22 samples.

Results

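The 84 human genes described here code for the proteins of the cytosolic ribosome. They were chosen by name alone, as symbols that begin with RPL or RPS followed by a number, with RPLP0, RPLP1, RPLP2 and RPSA added, out of 33538 genes counted in the first single-cell experiment and 36601 in each of the others. The set holds 31 proteins of the small subunit, 43 of the large subunit and 3 of the P stalk (RPLP0, RPLP1 and RPLP2), which make 77 standard members, and 7 paralogs (RPL3L, RPL7L1, RPL10L, RPL22L1, RPL26L1, RPL39L and RPS27L) that are close copies of a standard member.

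The study asked which signals move melanoma cells between a drug-susceptible state and a rare primed state, from which drug-resistant cells arise. All cells came from the human BRAF-mutant melanoma lines WM989 and WM983B, each grown from 1 bottlenecked clone (A6-G3 and E9-D5), so each line stands for 1 clone of 1 tumour. Single-cell RNA libraries were made from untreated WM989 cells in 8 chip wells, 4 in each of the replicates r1 and r2 (12531 cells), from untreated WM983B cells in 1 library (1449 cells), and from WM989 cells in 8 libraries of a treatment experiment (40021 cells). The untreated WM989 cells carried lineage barcodes and had been sorted, as a mixed culture and an EGFR/NGFR-high culture, and grown on before loading; the methods split each culture over 2 chip wells, so the 8 wells are not 8 separate samples. Open chromatin was measured by ATAC-seq in 12 libraries of untreated WM989 cells, 3 for each of 4 sorts: Mix, and cells high in the surface receptors EGFR, NGFR, or both (EGFR-High, NGFR-High, EGFR-NGFR-High). The labels call the reference sort Mix, whereas the study's methods list a sort negative for both receptors and no mix, and which of these it was is not settled. In the treatment experiment the 4 groups, with 2 libraries each, were Control (no added factor or inhibitor), TGFB1 (recombinant transforming growth factor beta 1 at 5 ng/mL), TGFBRi (LY2109761, a TGF-beta receptor inhibitor, at 4 µM) and PI3Ki (GDC-0941, a PI3-kinase inhibitor, at 2 µM), each for 5 days. The cells of a well were split over the 4 plates, so r1 and r2 each hold 1 library of every treatment. The sample labels call these replicates Mix and Primed, the cell table calls them r1 and r2, and which name goes with which was not settled, so they are called r1 and r2 here.

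A ribosome joins a small subunit, which reads the messenger RNA, to a large subunit, which makes the peptide bond. Each standard protein is needed in about the same amount, because a ribosome carries most of them as single copies; the P stalk proteins, which recruit the translation factors, are an exception with several copies. Most of these messenger RNAs begin with a C followed by an unbroken run of pyrimidines, the 5′ terminal oligopyrimidine (TOP) tract. Through this tract their translation, and in part their stability, answers to mTOR, a kinase downstream of PI3-kinase, and the LARP1 protein binds it. RNA counts measure the messenger only and say nothing of how strongly it was translated.

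The sequences at the start of 9 members are shown because they include several members named in the comparisons below and pairs of a standard member and its paralog. Each holds 40 bases before the RefSeq gene start and the 20 bases from it onward, on the coding strand of GRCh38.p14, the build (hg38) that the study also used. Capitals mark the C-initiated pyrimidine run nearest the start.

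RPL29 (chr3:51995876-51995935, minus strand): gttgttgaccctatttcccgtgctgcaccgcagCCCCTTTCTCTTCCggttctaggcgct
RPL34 (chr4:108620536-108620595, plus strand): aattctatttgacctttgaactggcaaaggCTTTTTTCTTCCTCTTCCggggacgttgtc
RPS4X (chrX:72277229-72277288, minus strand): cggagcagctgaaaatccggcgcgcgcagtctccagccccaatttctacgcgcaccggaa
RPLP0 (chr12:120201092-120201151, minus strand): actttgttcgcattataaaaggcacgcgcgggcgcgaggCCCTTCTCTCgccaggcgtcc
RPL22 (chr1:6199576-6199635, minus strand): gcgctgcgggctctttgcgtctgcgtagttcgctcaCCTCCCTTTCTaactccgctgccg
RPL22L1 (chr3:170870176-170870235, minus strand): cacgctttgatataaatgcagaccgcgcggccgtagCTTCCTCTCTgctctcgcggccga
RPS27 (chr1:153990722-153990781, plus strand): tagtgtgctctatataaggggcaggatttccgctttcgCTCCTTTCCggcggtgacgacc
RPS27L (chr15:63157458-63157517, minus strand): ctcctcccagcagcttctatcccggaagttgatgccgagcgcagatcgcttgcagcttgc
RPS26 (chr12:56041878-56041937, plus strand): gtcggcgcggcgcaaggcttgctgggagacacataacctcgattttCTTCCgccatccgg

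Such a run was searched on the coding strand as a C followed by at least 4 more letters that are C or T, beginning within 10 bases of the RefSeq start. It was present in 55 of the 67 member promoters in the RefSeq table (82.1%) and in 31.3% of all 27305 promoters there. For runs of at least 8 letters the shares were 67.2% and 8.22%. Among the matched members, 54 of 62 standard members and 1 of 5 paralogs, RPL22L1, held a run, with a median length of 10 letters in the standard members. RPS4X held none in this window, which says only that these letters were not there.

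The members' own messengers made up a large part of every library. They took 20.4% of all unique molecular identifiers (UMIs, 1 per captured transcript) in untreated WM989 cells, 15.5% in WM983B cells and 23.7% in the treatment experiment. A share of UMIs cannot tell more member RNA from less RNA of other genes. The protocol counts the 3′ end of a transcript once, so levels are given as CPM (counts scaled to a common library total) and compared between genes without dividing by length. In the treatment experiment the highest member was RPLP1, a P stalk protein, at 10567 CPM, followed by RPS2 at 8749 and RPL10 at 7465. The median of the 77 standard members was 2489 CPM, 72 of them exceeded 1000, and the 10 highest held 28.2% of all member UMIs. The lowest standard members were RPS10 at 229 CPM, RPS26 at 356 and RPL21 at 670.

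The paralogs lay below nearly all standard members. RPS27L, a p53 target, stood at 154 CPM against 5856 for RPS27, and RPL22L1 stood at 137 CPM against 1646 for RPL22. RPL10L, known from the testis, was at 0.115 CPM and had a UMI in 0.197% of cells, and RPL3L, known from muscle, was at 0.292 CPM with a UMI in 0.497% of cells. The order of levels was shared between the experiments: over the 84 members, Spearman's rho was 0.91 between both WM989 experiments, 0.78 between untreated WM989 and WM983B, and 0.81 between WM983B and the treatment experiment. Each point is the same gene in both experiments, and the part of its base composition in these values was not measured. The untreated WM989 libraries were made with an earlier version of the kit than the others. In WM983B the highest member was RPL41 at 5169 CPM.

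A few members stood at different levels in the 2 WM989 experiments. RPL17 was at 69.8 CPM in the untreated experiment and at 2568 in the treatment experiment, and RPL36A was at 160 and 1428. WM983B, whose table lists the same 36601 genes as the treatment experiment, had 2787 CPM for RPL17 and 861 for RPL36A. The gene lists of the tables and the kit versions differ, and the part of either in these differences was not tested. Members also have many processed copies in the genome: GENCODE lists 1600 pseudogenes named after a member, at least 1 for 78 of the 84, with a median of 12 and up to 133 (RPL21), and how reads were shared between a gene and its copies is not given in the sources used here.

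Between clusters, the members' share of UMIs ranged most widely in the treatment experiment, where the study had grouped the cells into 13 clusters. Cluster 11 had the highest share of UMIs from members, 35.9%, and cluster 6 followed with 31.1%, while the other 11 clusters lay between 20.5% (cluster 5) and 25.6% (cluster 4). Both high clusters came mostly from PI3Ki libraries. Cluster 6 held 2531 cells, of which 88.5% were PI3Ki cells (1104 in r1 and 1135 in r2), and cluster 11 held 355 cells, of which 80.6% were PI3Ki cells, 271 of them in r2 and 15 in r1. Clusters were drawn from the expression of these same cells, so these shares are a description with no test.

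**Figure D1:**
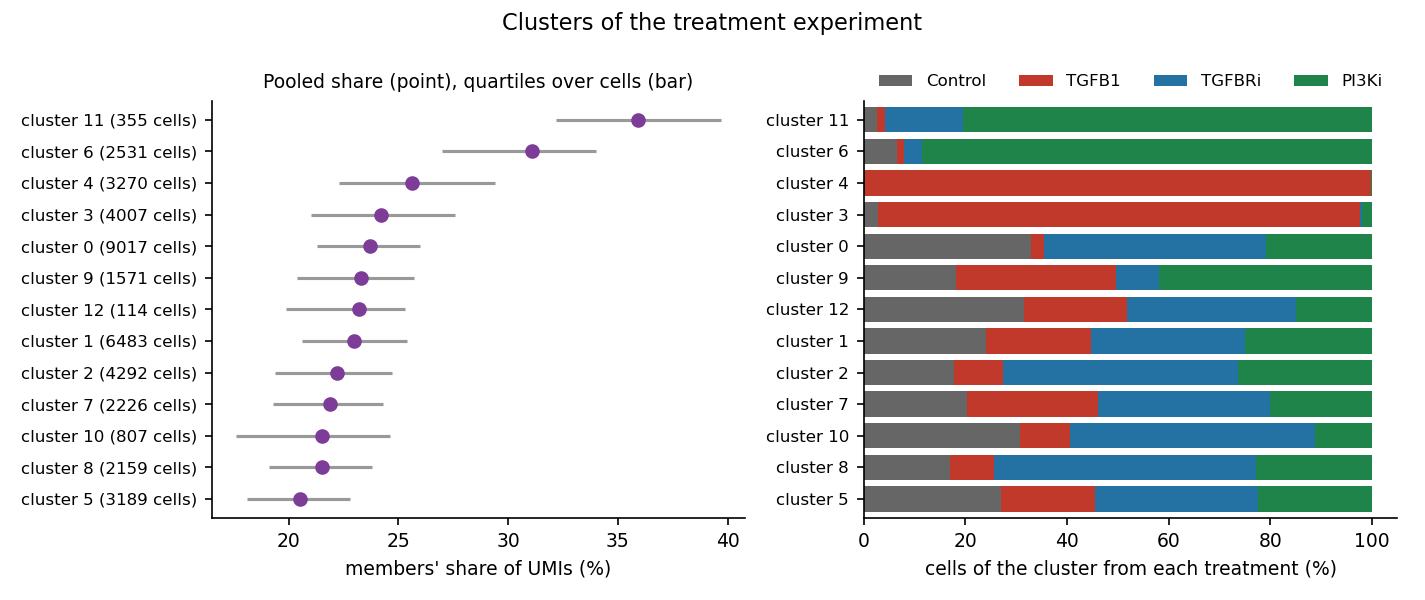
Left, the share of UMIs from the 84 members (percent, pooled over cells, points) and the quartiles over cells (bars) for each cluster of the treatment experiment; right, the percent of each cluster's cells that came from each treatment. Clusters 11 (35.9%) and 6 (31.1%) lie to the right of all others and consist mostly of PI3Ki cells.

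In cluster 11 the whole set was not raised evenly. Of 82 members with at least 20 CPM, 75 were higher than in the other cells and 7 lower, with a median ratio of 1.51, where the median of 5691 genes at that level was 0.746. Among the highest ratios were those of RPL12 (4237 against 1715 CPM, 2.47-fold), RPL34 (3851 against 1703, 2.26-fold), RPS12 (12901 against 5958, 2.17-fold) and RPL29 (5657 against 2816, 2.01-fold). RPL13A was at 0.735 of its level in the other cells, RPL7L1 at 0.776 and RPL38 at 0.881. Set against the other PI3Ki cells alone, the order at the top held: RPL12 stood at 2.32-fold, RPL34 at 2.03-fold and RPS12 at 1.95-fold.

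Cluster 11 also differed in depth. Its median was 30290 UMIs per cell against 16843 in cluster 6, 7.35% of its UMIs were mitochondrial against 11.5%, and the stress and RNA quality genes took 0.167% against 0.967%. The part of these in the members' level was not tested. Cluster 6 showed a more even rise, with a median ratio of 1.33 and 77 of 82 members higher, where the median over 5683 genes was 0.826. RPL31 stood at 1.52-fold, RPL23 at 1.51-fold and RPL34 at 1.5-fold the level of the other cells. The members at the lower end were mostly paralogs, namely RPL39L (41.6 against 81.7 CPM, a ratio of 0.51), RPS27L (0.721), RPL26L1 (0.835) and RPL7L1 (0.907), with the standard member RPS26 at 0.816.

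The cell cycle phase that the study assigned to each cell also went with the level. In the treatment experiment the members took 25.5% of UMIs in G1, 23.3% in S and 22.1% in G2M, and in 8 of 8 libraries G1 was highest and G2M lowest. Untreated WM989 cells had 20.6%, 20.8% and 19.6% with both states pooled, but primed cells, which have a lower share, were mostly in G1. Within each state G1 was highest and G2M lowest in both replicates, with 24.2% in G1 and 20.8% in G2M in drug-susceptible cells of r1, 21.2 and 19.1% in those of r2, 19.4 and 17.7% in primed cells of r1 and 16.6 and 15.9% in those of r2. WM983B cells had 16.3% in G1, 15.3% in S and 15.2% in G2M.

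Treatment with the PI3-kinase inhibitor gave the highest member share of the 4 groups. Over all cells the Control libraries stood at 22.3% (r1) and 21.5% (r2), the TGFB1 libraries at 23.7% and 22.6%, the TGFBRi libraries at 23.4% and 23.1%, and the PI3Ki libraries at 25.5% and 26.3%. All 3 treatments were above Control within each replicate, PI3Ki by 3.14 and 4.79 percentage points (mean 3.97 ± 1.17, SD, n = 2), TGFB1 by 1.38 and 1.12 (1.25 ± 0.187, SD, n = 2) and TGFBRi by 1.1 and 1.61 (1.35 ± 0.359, SD, n = 2). The 2 PI3Ki libraries were above every other library, while those of TGFB1 and TGFBRi overlapped each other. With 2 libraries per group an exact permutation test of a single share cannot go below p = 0.333, so none is given. Without clusters 6 and 11, an alternative chosen after the data were seen, the PI3Ki libraries stood at 23.6% and 24.1% and exceeded Control by 1.41 and 2.69 points.

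**Figure D2:**
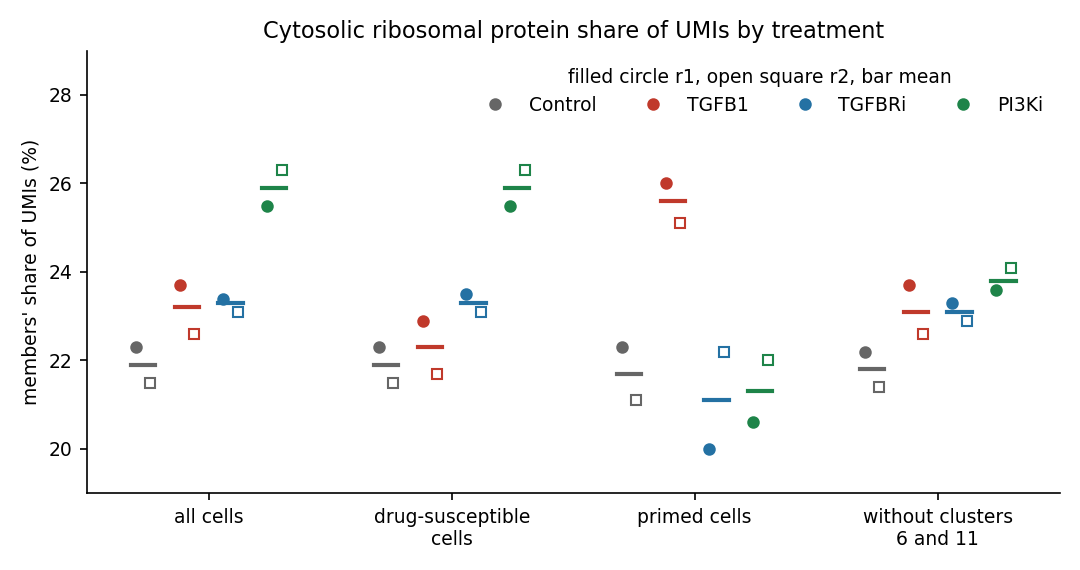
Members' share of UMIs (percent) per library of the treatment experiment in all cells, drug-susceptible cells, primed cells and all cells without clusters 6 and 11; filled circles are r1, open squares r2 and bars the mean of both. PI3Ki is highest in all cells (25.5 and 26.3%), TGFB1 is highest in primed cells (26.0 and 25.1%).

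The difference was also present inside clusters. Among the 7 clusters with at least 50 cells in both PI3Ki and both Control libraries, the PI3Ki share was higher than Control in both replicates in 7, with median differences of 1.68 points in r1 and 2.68 in r2. For TGFBRi it was higher in both replicates in 6 of 7 clusters. For TGFB1 it was higher in both in 0 of 8 and lower in both in 5.

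Gene by gene, 59 of the 84 members rose with PI3Ki against Control and 0 fell, at an adjusted p below 0.05 from edgeR's quasi-likelihood test with Benjamini-Hochberg adjustment over 18389 genes. Of all genes tested, 5.83% were called higher and 6.83% lower. The median log2 fold change of the members was 0.32, where that of all genes was 0.0, and 82 of 84 had a positive value. The rise held in each replicate taken alone, with a median of 0.23 in r1 and 0.4 in r2, and for 77 members both PI3Ki libraries lay above both Control libraries, as they did for 25.1% of all genes. By role, 25 of 31 small subunit, 32 of 43 large subunit, 2 of 3 P stalk and 0 of 7 paralog genes were called; for the paralogs the count was also 0 by DESeq2 and at an unadjusted edgeR p below 0.05. DESeq2 called 60 members higher and 0 lower, with 1577 of all genes called in either direction.

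Among members with a mean of at least 10 CPM, RPL29, RPL34, RPS4X, RPL41 and RPL37A were among those at the top; all 5 are structural proteins of the subunits. RPL29 stood at 2439 and 2304 CPM (scaled by edgeR) in the Control libraries and at 3350 and 3478 in the PI3Ki libraries, r1 first. Both PI3Ki values lay above both Control values, and the log2 fold change was 0.53 ± 0.08 (SE; edgeR adjusted p = 0.000173). RPL34 stood at 1530 and 1394 CPM in Control and 1914 and 2267 in PI3Ki, a log2 fold change of 0.52 ± 0.09 (edgeR adjusted p = 0.000459). RPS4X, the X-linked form of eS4, went from 2309 and 2268 CPM to 3018 and 3333, a log2 fold change of 0.47 ± 0.08 (edgeR adjusted p = 0.000472). In none of these 3 genes did the groups overlap.

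RPL41, the shortest member, had 4743 and 4019 CPM in Control and 5846 and 6059 with PI3Ki, and RPL37A had 4379 and 3508 in Control and 5327 and 5368 with PI3Ki, a log2 fold change of 0.45 for both. The groups overlapped in neither gene.

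RPL5, RPL11 and RPS6, members known for more than their place in the ribosome, had values near the members' median of 0.32. RPL5 and RPL11, which bind MDM2 as free proteins and thereby stabilise p53, rose by log2 fold changes of 0.28 and 0.33. RPL5 was at 2150 and 2125 CPM in Control and 2461 and 2739 with PI3Ki, and RPL11 was at 3830 and 3544 in Control and 4557 and 4721 with PI3Ki. RPS6, the substrate of S6 kinase, stood at 2111 and 2188 CPM in Control and 2360 and 2875 with PI3Ki (log2 fold change 0.28, edgeR adjusted p = 0.0352).

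In the P stalk, RPLP1 (log2 fold change 0.41) and RPLP2 (0.26) were called, and RPLP0, the protein that anchors both, was not, at 0.23 (edgeR adjusted p = 0.0571). RPLP0 stood at 3374 and 3108 CPM in Control and 3895 and 3714 with PI3Ki, so that the groups still did not overlap. RPSA, also known as a laminin receptor, had 0.2 with an edgeR adjusted p of 0.0981.

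The pairs of standard member and paralog differed in their values. RPS27 stood at 5903 and 4414 CPM in Control and 6587 and 7201 with PI3Ki, a called log2 fold change of 0.43, and RPS27L stood at 137 and 143 in Control and 141 and 152 with PI3Ki, 0.07. RPL26 was called at 0.38 and RPL26L1 had -0.02, RPL39 was called at 0.38 and RPL39L had -0.04, and RPL10 was called at 0.44. RPL22 had 0.24 and RPL22L1 0.09, RPL7 had 0.17 and RPL7L1 0.1, and none of these 4 was called. RPL3 was called at 0.31. RPL3L and RPL10L, at 0.58 ± 0.37 and 0.62 ± 0.53 (SE), had fewer than 0.5 CPM in each Control and PI3Ki library. No difference between a member and its paralog was tested.

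**Figure D3:**
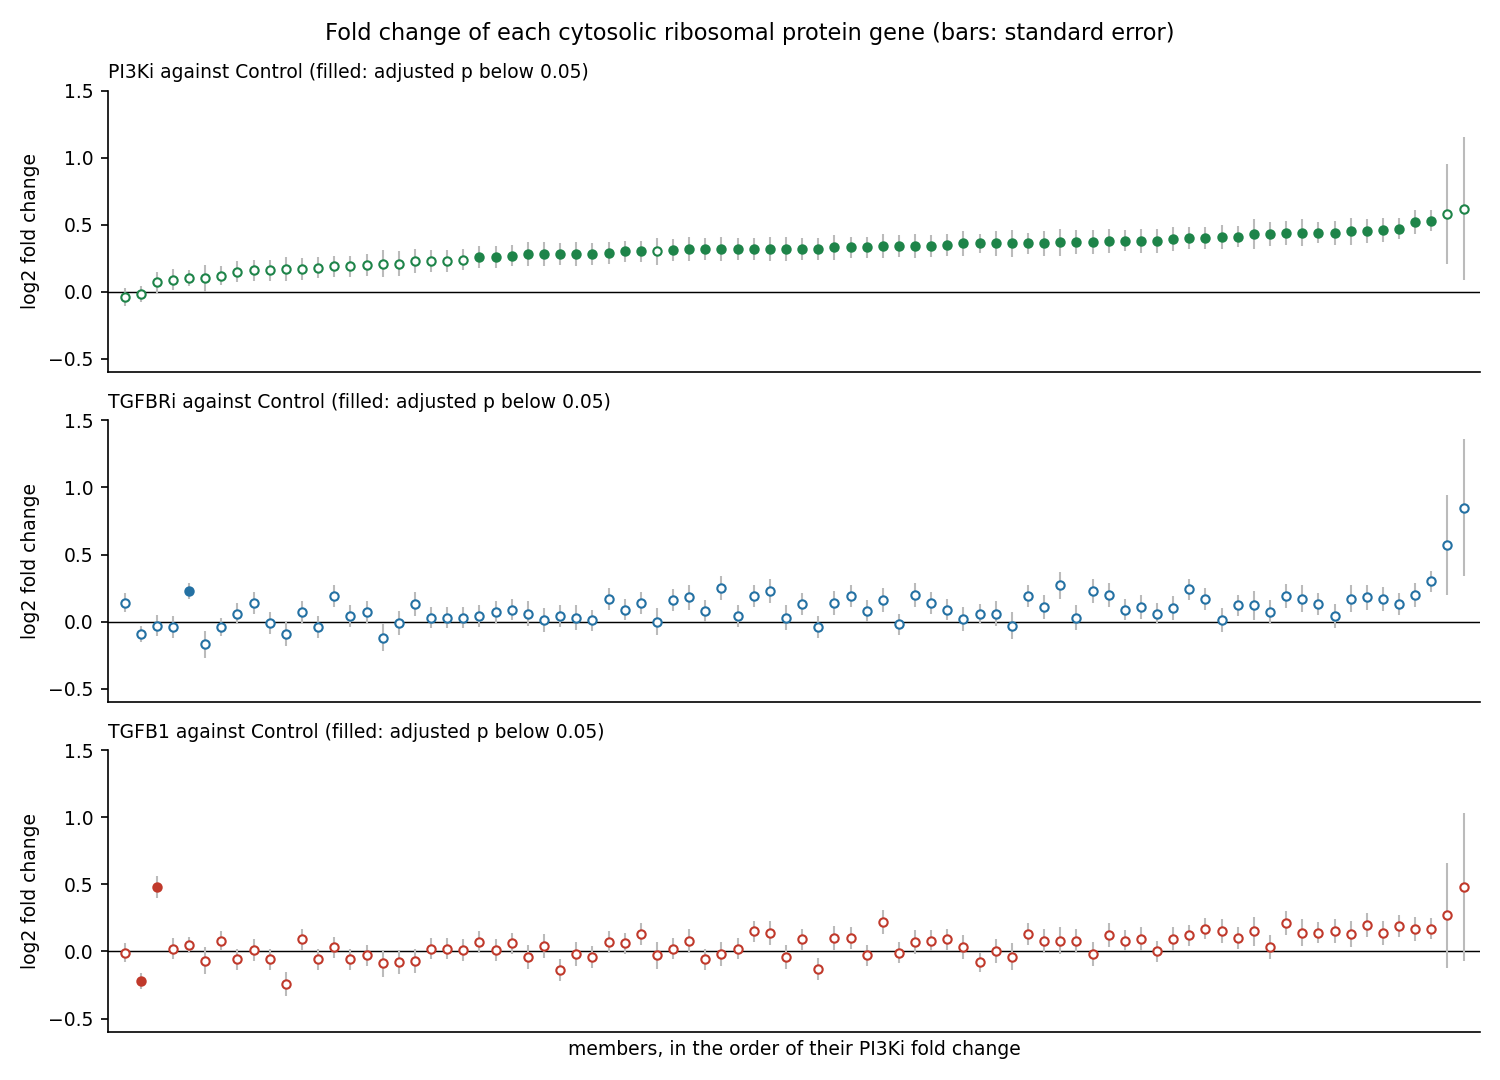
Log2 fold change against Control (y axis, points; bars are the standard error from edgeR) of each of the 84 members in PI3Ki, TGFBRi and TGFB1, with members along the x axis in the order of their PI3Ki value and not named; filled points have an edgeR adjusted p below 0.05. With PI3Ki 59 points are filled and lie above 0, with TGFBRi 1 and with TGFB1 2.

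The count of called members depended on which libraries and cells were included. Without clusters 6 and 11, which held 28.6 and 0.388% of PI3Ki r1 cells and 19.6 and 4.69% of PI3Ki r2 cells and were singled out for their high member share, it was 7 (among them RPL10, RPL29, RPL34, RPLP1 and RPS4X; 3.2% of all genes called higher), and without PI3Ki r2 it was also 7 (1.36%), whereas without cluster 11 alone it stayed at 59. Without Control r2 it was 2 (1.67%), RPL29 and RPS4X, which were also the only members called under each of the 20 settings tried for this comparison, and without Control r1 it was 21. With no replicate term in the model the count was 20, with 649 of all genes called in either direction. In drug-susceptible cells alone all 59 were called again, with 2170 of all genes called in either direction. Primed cells were only 0.647 and 1.21% of PI3Ki cells and 2.26 and 4.47% of Control cells, so this subset is nearly the same data. The melanocyte marker sum (MLANA, PMEL, TYR, DCT, TYRP1, SOX10 and MITF) was 5559 and 5875 CPM in the PI3Ki libraries and 4558 and 4512 in Control, and 43.6 and 44.1% of PI3Ki cells were in G1 against 34.0 and 32.7% of Control cells; the part of either in the members' rise was not tested. In G1 cells alone, the PI3Ki share exceeded Control by 5.3 points.

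Of 21 translation genes, mostly factors of initiation and elongation, 5 were called higher and 0 lower with PI3Ki, where 5.83 and 6.83% of all genes were. The median log2 fold change of the 21 was 0.15. DESeq2 called 8 of them higher, with 1577 of all genes called in either direction. At an unadjusted edgeR p below 0.05, 11 of them were higher. The 5 included EEF1B2 (log2 fold change 0.4), EEF1G (0.35) and EEF1A1 (0.28), parts of the elongation factor that delivers transfer RNA to the ribosome, and EEF2, which moves the ribosome along, had 0.19 (not called). FAU, which encodes a ribosomal protein fused to ubiquitin-like sequence and lies outside the name pattern, was called at 0.3, and RACK1, a small subunit protein with another name, had 0.22 (not called). Of 40 ribosome biogenesis factors 0 were called by edgeR or DESeq2, with a median of 0.06; at an unadjusted edgeR p below 0.05 there were 4 higher and 2 lower. Of 80 mitochondrial ribosomal protein genes, 1 was higher and 3 lower, shares below those of all genes, with a median of 0.0; this list was taken by symbol and includes the transcript MRPS30-DT.

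The members were also higher with PI3Ki than with either other treatment. Against TGFBRi, 34 of 84 were called higher and 0 lower (8.25% of all genes higher), with a median log2 fold change of 0.22. Against TGFB1, 65 were called higher and 1 lower (15.3% of all genes higher), with a median of 0.28. Without clusters 6 and 11 these counts in either direction were 2 and 10, with 2504 and 6156 of all genes called against 3131 and 6242 in the main fits. Without Control r1 or Control r2 the count against TGFBRi was 18 in both fits, with 2917 of all genes called. Both counts fell without PI3Ki r2, but that fit leaves 1 PI3Ki library. Leaving out TGFBRi r2 lowered the count against TGFBRi, and leaving out TGFB1 r1 or r2 that against TGFB1, again with 1 library left in the arm. Such counts say little about stability. These comparisons share the PI3Ki libraries with the one against Control.

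TGFB1 and TGFBRi left nearly all members uncalled in whole libraries. TGFB1 called 2 of 84, where 29.0% of all genes were called in either direction. The 2 were paralogs. RPS27L rose from 137 and 143 CPM in Control to 215 and 176 (log2 fold change 0.48 ± 0.08, SE; edgeR adjusted p = 5.3e-05), and RPL26L1 fell from 115 and 117 CPM to 99.6 and 99.9 (log2 fold change -0.22 ± 0.06; edgeR adjusted p = 0.0122). In both the groups did not overlap. RPL26L1 was not called when any one TGFB1 or Control library was left out, which leaves 1 library in that arm. Its log2 fold change in these fits stayed between -0.23 and -0.21. Neither gene was called in drug-susceptible cells alone, where RPS27L had 0.2 and RPL26L1 -0.09. Among standard members RPL28 (0.22) and RPL10 (0.21) had the highest log2 fold changes and RPL4 (-0.24) the lowest; none was called.

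TGFBRi called 1 of 84, where 2.53% of all genes were called. At an unadjusted edgeR p below 0.05 there were 16 members higher and 0 lower, a count with no share of all genes to set it against. The called member was RPL7L1, at 61.7 and 62.6 CPM in Control and 71.2 and 74.6 with TGFBRi (log2 fold change 0.23 ± 0.06, SE; edgeR adjusted p = 0.0482). It was no longer called under 13 of 19 alternatives (edgeR adjusted p of 0.0517 to 0.636 in these), among them those without Control r1, Control r2 or TGFBRi r2 (0.261, 0.636 and 0.103) and with no replicate term (0.3), while its log2 fold change stayed between 0.2 and 0.25 in all 19. RPL29, the top member with PI3Ki, had the highest value among members of at least 10 CPM here too, 0.3 ± 0.08 (edgeR adjusted p = 0.0553), with 2848 and 3006 CPM against 2439 and 2304. The 3 treatments share the Control libraries, so that a low Control value raises all of them together. Over the 84 members the median log2 fold change was 0.09 with TGFBRi and 0.06 with TGFB1, 0.0 and 0.01 for all genes.

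With TGFB1, 20 of 40 ribosome biogenesis factors fell and 0 rose, where 12.7% of all genes tested fell. Among the 20 were the nucleolar proteins FBL (log2 fold change -0.32) and NOLC1 (-0.32). Of 80 mitochondrial ribosomal protein genes 20 fell and 1, MRPS6 (0.34), rose. Of the 21 translation genes 5 fell, among them NPM1, a nucleolar chaperone of ribosome assembly (-0.37), and the initiation factor subunit EIF3E (-0.3), and 1 rose. Both lists had a share of genes called lower above the 12.7% of all genes and a share called in either direction below 29.0%; neither difference was tested. With TGFBRi, 0 of the 40 biogenesis factors and 0 of the 80 mitochondrial genes were called by edgeR or DESeq2 (1 and 14 at an unadjusted edgeR p below 0.05), and 1 of the 21 translation genes, GAS5, a snoRNA host gene, rose by 0.45. The melanocyte marker sum was 3009 and 3241 CPM in the TGFB1 libraries and 4558 and 4512 in Control, and 29.1 and 31.3% of TGFB1 cells were primed against 2.26 and 4.47% of Control cells. Primed cells of the experiment gave 0.353% of their UMIs to the biogenesis factors and drug-susceptible cells 0.484%. The part of either in these values was not tested.

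The TGFB1 libraries stood further from Control in primed than in drug-susceptible cells. In drug-susceptible cells the TGFB1 share was 22.9 and 21.7% against 22.3 and 21.5% in Control. In primed cells (clusters 4 and 10) it was 26.0 and 25.1% with TGFB1 and 22.3 and 21.1% in Control, 3.73 and 4.03 points higher. The stress and RNA quality genes took 1.04 and 1.16% of UMIs in these TGFB1 cells and 1.86 and 1.99% in the Control cells, and their part in the difference was not tested. All groups other than TGFB1 had few primed cells: Control, on which each of these differences rests, had 94 in r1 and 165 in r2, and TGFBRi and PI3Ki had between 25 and 271 per library. The primed shares of TGFBRi and PI3Ki lay on both sides of Control, TGFBRi by -2.33 points in r1 and 1.12 in r2 and PI3Ki by -1.69 and 0.93.

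In primed cells alone, an alternative chosen after the data were seen, 31 of the 82 members tested were called higher with TGFB1 and 0 lower (6.21% of 10930 genes higher), with a median log2 fold change of 0.31. The difference between the states, also chosen for a test after it had been seen in these libraries, was tested as an interaction of treatment and state: 77 of 83 members had a TGFB1 difference that was higher in primed than in drug-susceptible cells and 0 a lower one, by edgeR's quasi-likelihood test with Benjamini-Hochberg adjustment, against 6.77% of 17325 genes. The median interaction was 0.37 on the log2 scale, 0.03 over all genes. RPS3 (0.72), RPL23 (0.63), RPL7 (0.57) and RPS24 (0.57) had high called values, and RPS26 (-0.05) and RPL26L1 (-0.13) were not called. The primed cells compared were not of the same clusters: with TGFB1 1548 of 1577 (r1) and 1706 of 1757 (r2) lay in cluster 4, and in Control 89 of 94 and 159 of 165 lay in cluster 10. As clusters came from the expression of these cells, the p-values measure the spread between libraries for states so drawn.

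In both untreated experiments, primed cells had a lower share of UMIs from members than drug-susceptible cells. In untreated WM989 cells it was 17.8% in primed (2843 cells) and 21.3% in drug-susceptible cells (9688 cells). In r1 the shares were 19.0 and 22.2%, in r2 16.5 and 19.9%. By chip well the primed share was lower in all 8, but the pooled difference of -3.55 points was larger than that within 7 of them. In wells 3, 4, 7 and 8, where 6.85 to 9.42% of cells were primed, the difference lay between -0.264 (well 7) and -1.12 points (well 8). In wells 1, 2, 5 and 6, where 56.9 to 79.7% were primed, it lay between -2.2 (well 2) and -3.62 points (well 5). Which wells held the mixed and which the EGFR/NGFR-high culture is not in the labels used. The states were drawn from these same counts, so the shares are a description with no test. In WM983B the shares were 15.1% in primed (731 cells) and 16.0% in drug-susceptible cells (718 cells). The drug-susceptible cells were cluster 1, at 15.6%, and the 90 cells of cluster 3, at 18.1%, so that the gap to cluster 1 alone was smaller. Cluster 3 had a primed marker sum of 158 CPM and a melanocyte marker sum of 1060, where cluster 1 had 67.0 and 2215. The Control libraries of the treatment experiment, also without treatment, had nearly equal shares, 22.3 against 22.3% in r1 and 21.1 against 21.5% in r2.

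The primed clusters of untreated WM989 cells were not alike: clusters 2 and 9 had 17.1 and 16.4%, and cluster 8 had 22.4%. In clusters 2 and 9 the melanocyte marker sum was 108 and 133 CPM, against 5447 in the drug-susceptible cluster 0, the 3 endothelial markers summed to 26.3 and 30.2 against 0.445 CPM, and the 4 fibroblast markers to 85.7 and 66.5 against 39.9 CPM. The stress and RNA quality genes took 3.25% of UMIs in primed and 0.949% in drug-susceptible cells, and 73.7 and 25.5% of these cells were in G1. The part of these in the members' share was not tested. The mitochondrial share was 8.31% in primed and 14.4% in drug-susceptible cells; with nuclear genes only in the total, the members' share was 19.4 and 24.9%.

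Within the lower share, members differed in direction. Of 82 members with at least 20 CPM in untreated WM989, 11 were higher and 71 lower in primed cells, with a median ratio of 0.815, where the median over 6316 genes was 0.999. RPS27L was highest (348 against 173 CPM, 2.01-fold), followed by RPL28 (4756 against 3954, 1.2-fold), RPLP1 (10287 against 9058, 1.14-fold), RPL10 and RPS27 (1.11-fold both). RPS24 was lowest (1361 against 2600 CPM, a ratio of 0.524), followed by RPL31 (0.564), RPL27 (0.606), RPL5 (0.609) and RPL35 (0.621). RPS27L was at 1.76-fold in r1 and 2.37-fold in r2, and RPS24 at 0.541 and 0.51. All these ratios pool wells with 6.85 to 79.7% primed cells, and none was taken within a well.

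In WM983B 5 of 82 were higher and 77 lower, in a narrow range from 0.831 (RPL22L1) to 1.01, with RPS27L at 0.919. Of all genes at that level 54.8% were higher, with a median ratio of 1.01. The drug-susceptible cells here include the 90 cells of cluster 3, and no ratio was taken without them. In the Control libraries of the treatment experiment 27 were higher and 55 lower, with a median ratio of 0.949. Of all genes 47.3% were higher there, with a median of 0.98. RPS27L was at 1.76-fold, RPL28 at 1.34-fold and RPL10 at 1.28-fold, and RPL27 was lowest at 0.732. In the TGFB1 libraries 74 were higher and 8 lower, with a median of 1.11, where 40.8% of all genes were higher, with a median of 0.932. RPS27L stood at 1.94-fold (312 against 161 CPM), RPL10 at 1.46-fold, RPL28 at 1.44-fold and RPL34 at 1.32-fold, while RPL26L1 stood at 0.662 and RPS26 at 0.71. RPL28 was higher in primed cells in all 4 of these comparisons and 9 members were lower in all 4. Over the 82 members the ratios had a Spearman's rho of 0.77 between untreated WM989 and Control, 0.74 between Control and TGFB1, and 0.43 between untreated WM989 and TGFB1. Between WM983B and untreated WM989, Control and TGFB1 it was 0.19, 0.29 and 0.44. Each point is the same gene on both sides, and the part of its base composition in these values was not measured.

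**Figure D4:**
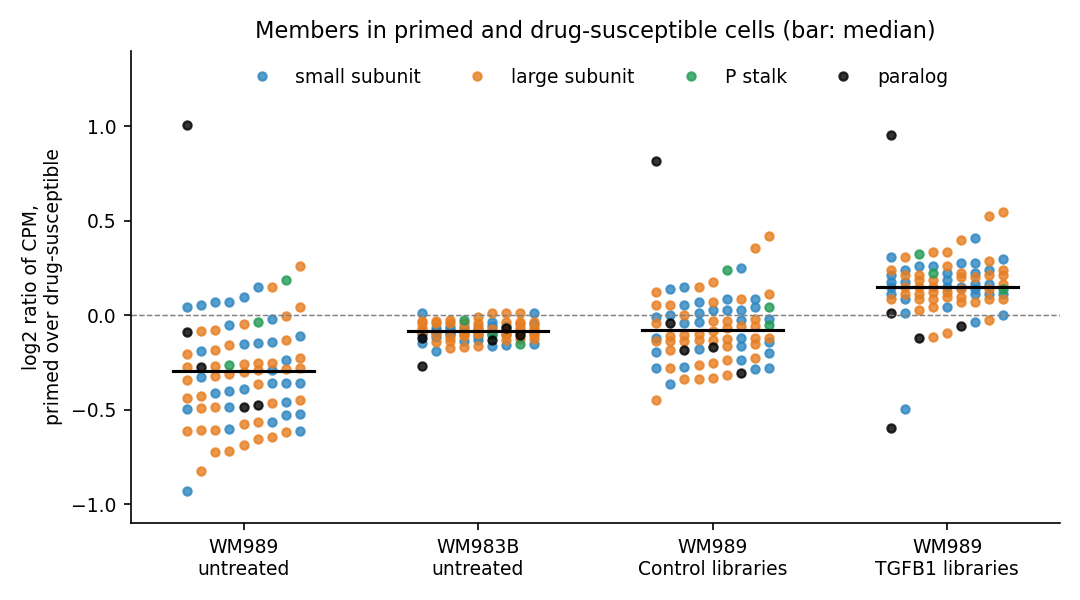
Log2 ratio of CPM in primed over drug-susceptible cells (y axis; 0 is equal) for 82 members in untreated WM989, untreated WM983B, and the Control and TGFB1 libraries; colour gives the role and the black bar the median. The median ratio lies below 1 in the first 3 (0.815, 0.943 and 0.949) and above it with TGFB1 (1.11), and the uppermost point in both untreated and treated WM989 cells is the paralog RPS27L.

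At the chromatin level the gene starts of members were open in all sorts. For 82 of 84 members a peak called by the authors overlapped 500 bases on either side of the gene start in each of 12 libraries (97.6%), compared with 61.8% of 18795 gene starts. RPL3L and RPL10L, the members with the lowest RNA counts, had a peak in 0 libraries. The median fold enrichment over background was 44.1 for members and 38.1 for all gene starts with a peak in every library. Per member, the highest of 12 libraries was 1.17 to 2.33 times the lowest, with a median of 1.55.

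No gene start of a member passed the threshold against Mix in any sort. By limma with Benjamini-Hochberg adjustment over 11621 gene starts, 0 of 82 members were called for EGFR-NGFR-High (0.602% of all starts called), 0 for EGFR-High (0.232%) and 0 for NGFR-High (0.447%). At an unadjusted p below 0.05 there were 9, 6 and 3 of 82 members, against 11.1, 11.7 and 11.6% of all starts. The median log2 differences of the members were 0.03, 0.02 and -0.01.

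RPL39 had the highest value in EGFR-NGFR-High, with fold enrichments of 18.2, 18.4 and 16.9 against 9.86, 13.7 and 13.1 in Mix. These groups did not overlap, but the log2 difference of 0.49 ± 0.16 (SE) had a limma adjusted p of 0.236. RPL34 followed with 40.8, 39.7 and 30.8 against 29.1, 29.2 and 21.8 (0.4, limma adjusted p = 0.254), and RPL19 was lowest with 12.2, 11.8 and 8.44 against 12.1, 16.0 and 12.6 (-0.41). RPL37A was lowest in EGFR-High, with 29.5, 30.7 and 36.2 against 48.8, 44.8 and 44.0 (-0.46, limma adjusted p = 0.212), and RPS2 was lowest in NGFR-High (-0.31). In RPL34 and RPL37A too the groups did not overlap, and neither passed the adjusted threshold. These members were named for lying at the ends of the comparisons, and the share of all gene starts without overlap was not taken.

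**Figure D5:**
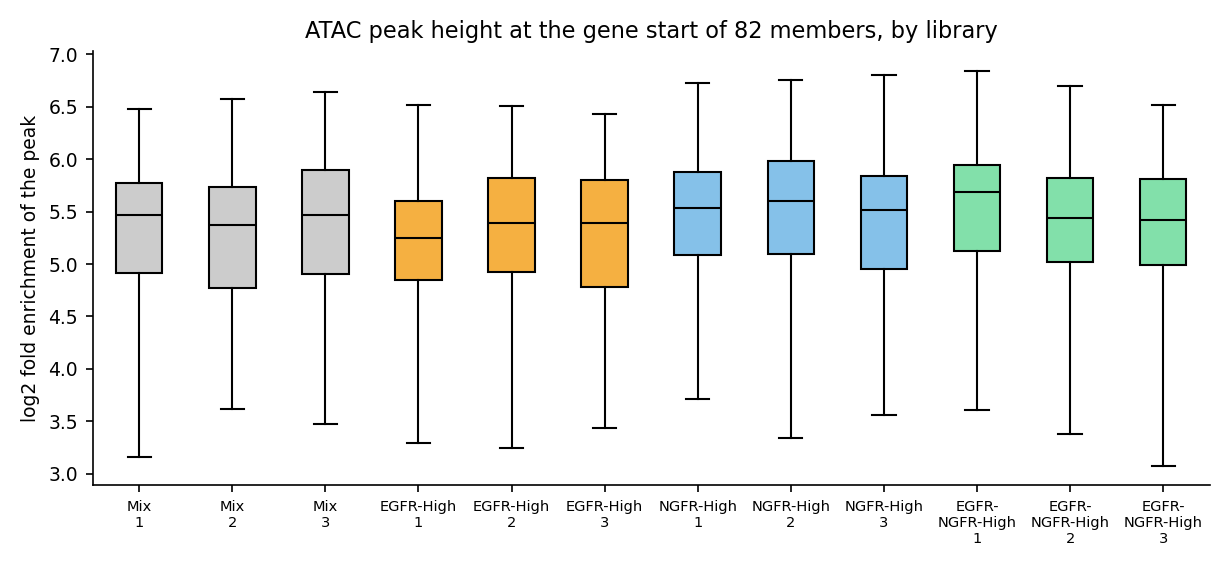
Log2 fold enrichment of the highest ATAC peak at the gene start for 82 members in each of 12 libraries, 3 per sort; boxes show the quartiles, the line the median and whiskers the full range. The boxes of the 4 sorts overlap throughout.

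The cells carried melanocyte markers at higher levels than those of other cell types when all cells of an experiment were pooled. The melanocyte marker sum was 3684, 1433 and 4465 CPM in untreated WM989, WM983B and the treatment experiment, while 5 immune markers summed to 0.913, 16.7 and 0.766 CPM, 3 endothelial markers to 6.84, 0.331 and 1.19, and 3 keratinocyte markers to 0.00799, 0.857 and 0.00583. The 4 fibroblast markers summed to 45.1 CPM in untreated WM989 and 30.3 in the treatment experiment, and LUM alone, one of them, stood at 92.0 CPM in WM983B. Of the keratinocyte markers KRT5 and KRT1 were at 0 in all 3 experiments. Totals in the treatment experiment lay between 70239657 and 122420544 UMIs per library, and 194 cell barcodes occurred in more than 1 library (0.969% of cells). The exact binomial 95% interval of a pooled share was no wider than a few hundredths of a percentage point for whole libraries, for example 22.329 to 22.347% in Control r1; it covers counting error only. The ribosomal percentage in the deposited cell tables counts only symbols that begin with RPS, as recounted here to within 1e-06 in all 40021 cells of the treatment experiment. Its median over those cells was 10.6%, and that of the 84 members was 23.3%.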

How the data were processed

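UMI counts per gene and cell were deposited by the authors, who used the 10x Genomics Cell Ranger pipeline on hg38 and joined runs without depth normalisation (version and annotation not given in the sources used here). The deposited cell tables gave clusters, phases and percent values of mitochondrial and ribosomal UMIs. For ATAC-seq the authors aligned reads with Bowtie2 2.3.4.1, used SAMtools 1.1, and called peaks per library with MACS2 2.1.1.20160309; the deposited peak lists hold the fold enrichment (a ratio), the −log10 p-value and the −log10 q-value, and only the fold enrichment was used. Members were set by a rule on names, and the rule and the other lists were chosen with earlier results of these data known.

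Counts were summed per library over all cells, filtered with filterByExpr, scaled by TMM and tested with edgeR 4.0.16 (quasi-likelihood, model of replicate and treatment, 3 residual degrees of freedom, two-sided, Benjamini-Hochberg, 0.05). CPM of libraries carries TMM factors (0.941 to 1.05), and CPM of clusters or states is plain. The replicate term follows the split of wells over plates; r2 minus r1 correlated between treatments (Pearson's r over genes 0.256 to 0.365, 6 pairs). P-values measure the spread between these libraries. The highest peak within 500 bases of the GENCODE v44 gene start was tested as log2 fold enrichment, centred per library, with limma 3.58.1 (8 residual degrees of freedom). Both procedures were tested on simulated data. Named members were the 5 at each end of a comparison (mean of at least 10 CPM; 20 CPM for ratios; 3 at each end for ATAC), a fixed list of paralog pairs and known members, and the 2 largest of each other list. DESeq2 1.42.0, other scalings, no filter, cell subsets, no replicate term and leaving out each library were the alternatives. The share of all genes at an unadjusted edgeR p below 0.05 was not taken, so list counts at that threshold have no baseline. Some genes that the rule selects are not reported here. Doublets were not called again, and no cell was removed beyond the authors' filters.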

Additional observations from a re-analysis of the deposited data

Results flagged for a closer look

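For 77 of 83 members the TGFB1 difference from Control was higher in primed than in drug-susceptible cells, against 6.77% of 17325 genes. The test was the interaction test of edgeR with Benjamini-Hochberg adjustment (2 residual degrees of freedom), added after the difference had been seen. The primed share of UMIs from members was above Control in 2 of 2 replicates, by 3.73 and 4.03 percentage points. Primed cells were mostly of cluster 4 with TGFB1 and of cluster 10 in Control, and the stress and RNA quality genes took 1.04 and 1.16% of UMIs in primed TGFB1 cells and 1.86 and 1.99% in primed Control cells; the part of either in the result was not tested.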

How the results depend on the processing

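The p-values rest on 2 libraries per treatment, and shares of UMIs on counts whose total moves with other genes. Counts of members called past the threshold moved as follows, and the cause was not tested. The number of all genes called in either direction is in brackets. For PI3Ki against TGFBRi alone, the bracket instead holds the member count of the main fit, 34. A fit without a library of a compared group leaves 1 library there, so counts from such fits are left out. The exception is the range for PI3Ki against TGFBRi, which covers every library left out. It includes such fits and says little about stability. TGFB1 gave 2 (5324), and 10 (5221) with library totals alone, 4 (3764) with DESeq2 and 7 (5404) with no filter. By cells it gave 0 (2665) in drug-susceptible, 9 (5021) in G1 and 31 (1454) in primed cells. It gave 6 (5443) without cluster 11, 4 (5445) without clusters 6 and 11, and 3 or 4 (5006 to 6377) without a TGFBRi or PI3Ki library. TGFBRi gave 1 (466), and 0 with RLE factors (453), with TMM factors from other genes (426) and with no replicate block (40). It gave 0 in G1 cells (148) and with equal numbers of cells (387). The count was 2 with library totals alone (593), without cluster 11 (488) and without clusters 6 and 11 (482). It was 3 with DESeq2 (329), 7 with no filter (748), and 0 or 1 (368 to 463) without a TGFB1 or PI3Ki library. PI3Ki gave 59 (2328), and 20 (649) with no replicate block, 7 (1539) without clusters 6 and 11, and 52 to 65 (2241 to 3298) without a TGFB1 or TGFBRi library. PI3Ki against TGFBRi (34): 6 with no replicate block, 65 in G1 cells, 2 without clusters 6 and 11, and 1 to 41 with a library left out. PI3Ki against TGFB1 gave 66 (6242), and 34 (6705) with library totals alone, 33 (4448) with no replicate block and 10 (6156) without clusters 6 and 11. Without a Control or TGFBRi library it gave 48 to 69 (6052 to 7282). The ATAC comparisons gave 0 in each leave-one-out fit. For the interaction, each fit with a library left out has 1 library in the Control or the TGFB1 arm. It takes its spread from the other arm's pair, so these fits say little about stability.

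The difference in share from Control, in percentage points, was for TGFB1 (1.25) 1.69 as the mean over cells, 1.05 with nuclear genes only, 0.4 in drug-susceptible, 3.88 in primed and 1.97 in G1 cells. For TGFBRi (1.35) it was -0.61 in primed cells, and for PI3Ki (3.97) -0.38 in primed cells, 2.05 without clusters 6 and 11 and 5.3 in G1 cells. Primed minus drug-susceptible cells gave -3.55 in WM989, -5.22 in G1 cells, -5.52 with nuclear genes only and -3.18 in r1, and -0.9 in WM983B, -0.39 in G1 cells, -0.81 as the mean over cells and -1.03 with nuclear genes only. Cluster 6 minus other cells went from 7.88 to 9.21 with nuclear genes only, and G1 minus G2M from 3.32 to 3.49 as the mean over cells and 3.88 with nuclear genes only.

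ATAC replicate numbers were not taken as pairs, as r ran from -0.0491 to 0.126 over 18 pairs, although 10 of 12 libraries correlated best with their own number, a hint from the data and not from the design. With a replicate block, 0 members were called in each of the 3 comparisons. Of 1574 values of single named members under the alternatives, 1433 kept their direction and side of the threshold. A further 81 fell below it, 60 rose past it and 0 of those called turned their direction. Of 162 member counts and shares under the alternatives, 98 stayed the same, 62 moved and 2 reversed. Fits that leave 1 library in an arm are among these, and a count was taken as moved past a factor of 1.5.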
